A study of Mus musculus with 20 samples.

Results

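Transcripts of 9 genes of interleukin-1 (IL-1) and interleukin-33 (IL-33) signalling were measured in cultured cancer-associated fibroblasts (CAFs), the fibroblasts of the tumour stroma. They were taken by name from the 32285 genes measured and comprise the cytokine Il33, the IL-1 receptor antagonist Il1rn, the receptors Il1r1, Il1rap and Il1rl1, the protease Casp1, and the adaptor and kinases Myd88, Irak1 and Irak4. All 9 passed the filter on low values, at least 1 TPM in at least 5 libraries, which kept 12350 genes. TPM (transcript level per unit of length, scaled to a fixed total per library) is the unit throughout, so levels can be set against each other between genes.

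The cells were immortalised primary murine CAFs, and 5 libraries were made for each of 4 groups after 32 h. The groups were 0.2 mM glutamine with 25 uM EIPA, 0.2 mM glutamine with DMSO alone, 4 mM glutamine with DMSO and 25 pg/mL IL-1a, and 4 mM glutamine with DMSO alone. DMSO, the vehicle, is named in the sample titles of every group except the one with EIPA. EIPA, derived from amiloride, blocks sodium-proton exchangers and with them macropinocytosis, the uptake of fluid in bulk, and IL-1a is the ligand of the receptor encoded by Il1r1. The treatment protocol states the EIPA dose in mM where the sample titles state uM, and the titles are followed here. Whether the 5 libraries of a group came from separate cultures, and from 1 or several isolates, is not stated in the labels, and the p-values then reflect no more than the spread among these libraries, which may be technical.

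IL-1a and IL-1b bind IL-1R1, which then recruits the shared co-receptor IL-1RAP, while the antagonist IL-1RN occupies IL-1R1 without recruiting it. IL-33, a nuclear cytokine of stromal and barrier cells, binds ST2, the product of Il1rl1, and uses the same co-receptor. Both receptor complexes gather MyD88, IRAK4 and IRAK1 through their cytoplasmic domains and lead to NF-kB and MAP kinases. In CAFs, IL-1 is known as a tumour-derived signal for an inflammatory state.

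Library totals ran from 999999.47 to 1000000.84 TPM. The read depth behind a value is unknown, and genes of a few TPM may rest on few reads. Of 11 fibroblast markers, 9 had a mean of at least 1 TPM in each group, while Fap and Lum were at most 0.31 and 0.42 TPM in any library. The fibroblast marker sum, mostly Vim and collagens, had medians of 2218 TPM with EIPA and 3695 TPM with vehicle at 0.2 mM glutamine, and of 9129 TPM with IL-1a and 9577 TPM with vehicle at 4 mM. Vim, Col1a1, Col1a2, Col3a1, Dcn and Thy1 averaged lower with EIPA than with vehicle at 0.2 mM. Pdgfra, Pdgfrb and Pdpn averaged higher with EIPA, at 14.8, 15.1 and 203.7 TPM against 6.15, 11.3 and 95.75 TPM. Mesothelial markers were present as well, with sums of 203.4 to 322.6 TPM with EIPA and 380.3 to 542.2 TPM with vehicle at 0.2 mM, and of 692.4 to 1177 TPM with IL-1a and 803.2 to 1315 TPM with vehicle at 4 mM. Epithelial marker sums, mostly Krt19, which the mesothelial list also holds, were 88.52 to 119.8 TPM with EIPA and 132.9 to 205.5 TPM with vehicle at 0.2 mM, and 166.8 to 362.4 TPM with IL-1a and 186.0 to 397.1 TPM in vehicle at 4 mM. Endothelial marker sums, mostly Kdr, were 6.69 to 9.26 TPM with EIPA and 6.33 to 10.32 TPM with vehicle at 0.2 mM, and 1.9 to 3.54 TPM with IL-1a and 2.9 to 4.04 TPM in vehicle at 4 mM. Among these markers, Epcam and Pecam1 were at most 0.36 and 0.35 TPM in any library. Krt18 averaged 10.4 TPM with EIPA and 4.78 TPM with vehicle at 0.2 mM, and 14.0 TPM with IL-1a and 12.1 TPM with vehicle at 4 mM. Cdh1 averaged 0.398 TPM with EIPA and 0.3 TPM with vehicle at 0.2 mM, and 1.7 TPM with IL-1a and 1.52 TPM with vehicle at 4 mM. The part of the mesothelial, epithelial and endothelial sums in the results was not tested. Of the leukocyte markers, Adgre1 and Cd3e were listed at 0 in all 20 libraries. In these bulk samples, fewer cells of a type and less RNA per cell cannot be told apart. A set of 3 libraries of the 4 mM groups, IL-1a replicates 1 and 5 and vehicle replicate 5, stood apart from the other 7 on the third principal component, and calls of the 9 genes that changed without them are given both ways.

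Transcript of Il33, the ligand of ST2, was abundant at 4 mM glutamine and nearly absent at 0.2 mM. The gene lies at chr19:29925114-29960718 on the plus strand (mm10, GENCODE M21). It was at 0.61, 0.43, 0.36, 0.69 and 0.59 TPM with EIPA, against 1.02, 0.72, 0.42, 1.41 and 0.71 TPM with vehicle at 0.2 mM glutamine. At 4 mM, IL-1a libraries held 119.75, 40.91, 48.06, 37.76 and 47.35 TPM, against 23.25, 24.26, 32.43, 28.06 and 37.19 TPM with vehicle. All 10 libraries at 0.2 mM were below all 10 at 4 mM, and the ranges of IL-1a and vehicle at 4 mM did not overlap.

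In vehicle, Il33 averaged 0.856 ± 0.375 TPM at 0.2 mM and 29.0 ± 5.82 TPM at 4 mM glutamine (SD, n = 5 each), 33.9-fold lower at 0.2 mM. Its log2 fold change on the log2(TPM + 1) scale was -4.02 ± 0.22 (SE), with an adjusted p of 2.1e-12 (limma, Benjamini-Hochberg over 12350 genes). The median gene was itself higher at 0.2 mM, by 0.14 (log2), and relative to that gene Il33 fell by 4.16. With IL-1a it averaged 58.8 ± 34.4 TPM, against 29.0 ± 5.82 TPM in vehicle at 4 mM. That difference, 0.87 ± 0.22, had an unadjusted p of 0.00081 and an adjusted p of 0.17, so Il33 was not called. Replicate 1 of IL-1a held by far the highest value, and without it the difference was 0.58 with an adjusted p of 0.16 (0.087 to 0.55 over the 30 alternatives). The EIPA difference was not called either, at -0.26 ± 0.22 with an adjusted p of 0.37, on levels around and under 1 TPM where the added 1 compresses differences.

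**Figure D1:**
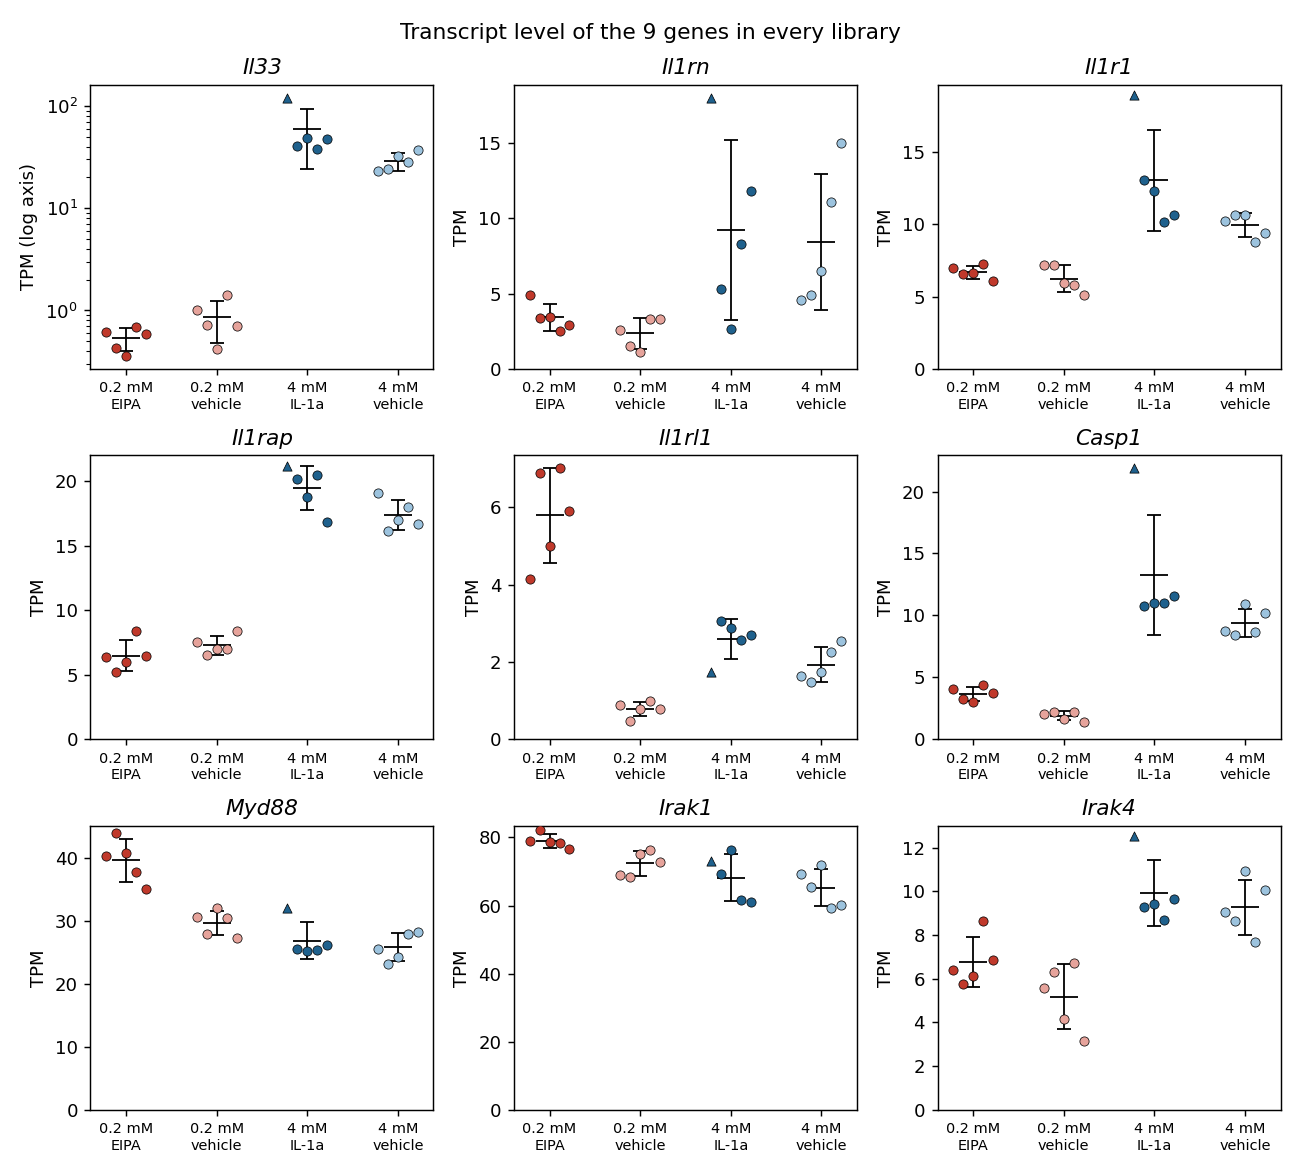
TPM of the 9 genes in each of the 20 libraries (points; triangle, replicate 1 of IL-1a) with group means and SD (bars, n = 5); the axis of Il33 is logarithmic and the others start at 0. The 10 libraries at 0.2 mM hold 0.36 to 1.41 TPM of Il33 and the 10 at 4 mM hold 23.25 to 119.75 TPM, while Il1rl1 is highest in the 5 EIPA libraries, at 4.15 to 7.01 TPM.

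Il1rl1, which encodes the IL-33 receptor ST2, was highest with EIPA and lowest in vehicle at 0.2 mM glutamine. It maps to chr1:40429570-40465415 on the plus strand and stood at 4.15, 6.88, 5.01, 7.01 and 5.91 TPM with EIPA, against 0.89, 0.48, 0.79, 0.99 and 0.78 TPM with vehicle at 0.2 mM glutamine. At 4 mM it was at 1.73, 3.06, 2.89, 2.57 and 2.7 TPM with IL-1a, against 1.64, 1.47, 1.74, 2.27 and 2.54 TPM with vehicle. Every EIPA library was above all 15 others, every vehicle library at 0.2 mM was below all 15 others, and the 4 mM groups overlapped.

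Il1rl1 rose 7.37-fold with EIPA, to 5.79 ± 1.22 TPM against 0.786 ± 0.191 TPM in vehicle (SD, n = 5 each; log2 1.91 ± 0.14 SE, adjusted p = 7.3e-10). Between the glutamine levels in vehicle it fell, at 0.786 ± 0.191 TPM in 0.2 mM against 1.93 ± 0.453 TPM in 4 mM (-0.71 ± 0.14, adjusted p = 9.9e-05; -0.85 relative to the median gene). The IL-1a difference of 0.29 ± 0.14 was not called, with an adjusted p of 0.81. The EIPA response, at 0.2 mM, exceeded the IL-1a response, at 4 mM, by 1.62 ± 0.19 on the log2 scale (adjusted p = 3.6e-06). Mast cells and type 2 innate lymphoid cells are known for high ST2, and of their 7 markers Fcer1a and Cpa3 were listed at 0 in all 20 libraries. The sum of those markers, mostly Gata3 and Rora, was 12.92 to 14.29 TPM with EIPA and 13.67 to 20.54 TPM with vehicle at 0.2 mM, and 5.52 to 7.4 TPM with IL-1a and 6.22 to 7.96 TPM in vehicle at 4 mM. Within that sum, Rora rose with EIPA, at 6.74 TPM against 4.48 TPM in vehicle (0.49 ± 0.12, adjusted p = 0.0016), and Gata3 fell, at 6.58 against 10.8 TPM (-0.61 ± 0.14, adjusted p = 0.0012). The leukocyte marker sum did move with EIPA, at 7.99 to 9.57 TPM against 2.12 to 3.5 TPM in vehicle, mostly through Cd68, at 7.85 ± 0.67 TPM with EIPA and 2.35 ± 0.316 TPM with vehicle. Csf1r, of the same list, averaged 0.51 TPM with EIPA and 0.046 TPM with vehicle at 0.2 mM, near the floor. At 4 mM it averaged 1.06 TPM with IL-1a and 0.83 TPM with vehicle. Fcer1g averaged 0.276 TPM with EIPA and 0.316 TPM with vehicle at 0.2 mM. Ptprc, the pan-leukocyte marker, was listed at 0 in the 10 libraries at 0.2 mM.

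The ligand Il33 and its receptor Il1rl1, which carry the largest differences among the 9 genes, each have 2 RefSeq starts, and the windows around them are printed below. Each window runs from 250 bases before a start to 50 bases from it, in the mm10 (GRCm38.p6) assembly on the plus strand, with capitals marking the bases from the annotated start onward. In mouse fibroblasts the second start of Il1rl1, nearer the coding exons, is known to be the main one, while mast cells use the first. The starts lie 20.7 kb apart in Il33 and 10.1 kb apart in Il1rl1, and values per gene do not tell which start was used.
Il33 first start, chr19:29924863-29925162: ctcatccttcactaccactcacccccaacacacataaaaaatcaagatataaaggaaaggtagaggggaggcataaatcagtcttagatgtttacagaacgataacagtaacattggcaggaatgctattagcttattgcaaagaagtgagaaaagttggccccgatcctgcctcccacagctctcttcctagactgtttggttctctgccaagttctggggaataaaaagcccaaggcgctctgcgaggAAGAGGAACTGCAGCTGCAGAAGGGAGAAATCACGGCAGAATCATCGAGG
Il33 second start, chr19:29945540-29945839: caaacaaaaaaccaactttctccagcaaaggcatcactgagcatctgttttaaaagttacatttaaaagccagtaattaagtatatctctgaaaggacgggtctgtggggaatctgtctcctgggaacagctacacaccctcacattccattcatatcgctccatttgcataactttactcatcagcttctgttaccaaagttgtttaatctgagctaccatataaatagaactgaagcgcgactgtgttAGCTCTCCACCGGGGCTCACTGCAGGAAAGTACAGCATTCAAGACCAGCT
Il1rl1 first start, chr1:40429320-40429619: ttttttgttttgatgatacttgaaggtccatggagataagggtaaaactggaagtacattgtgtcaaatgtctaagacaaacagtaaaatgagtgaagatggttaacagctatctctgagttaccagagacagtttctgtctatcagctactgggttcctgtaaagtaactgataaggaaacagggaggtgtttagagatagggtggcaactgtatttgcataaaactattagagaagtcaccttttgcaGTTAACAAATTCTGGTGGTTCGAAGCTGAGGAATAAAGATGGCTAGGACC
Il1rl1 second start, chr1:40439379-40439678: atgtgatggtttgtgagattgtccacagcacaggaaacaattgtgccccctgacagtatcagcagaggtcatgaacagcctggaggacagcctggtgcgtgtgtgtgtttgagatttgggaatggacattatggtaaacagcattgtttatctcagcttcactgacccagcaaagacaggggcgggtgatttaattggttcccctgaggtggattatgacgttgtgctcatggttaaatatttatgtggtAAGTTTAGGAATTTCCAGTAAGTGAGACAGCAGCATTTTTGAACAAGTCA

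The 15 RefSeq windows of the 9 genes were searched on both strands for 4 motifs. They were an NF-kB site (GGGNNNNNCC), an AP-1 site (TGANTCA), a STAT site (TTCNNNGAA) and an ATF4 amino acid response site (TGATGNAA), which were found in 50.8%, 7.81%, 8.29% and 3.97% of 32817 mouse promoter windows of the same length. None of the 4 windows above held a match to any of them. Of the 15, 9 windows of 6 genes held an NF-kB match, 1 window of Il1rn an AP-1 match, 1 window of Myd88 a STAT match and 0 an ATF4 match. These are matches of letters in a window, some of them overlapping, and no binding was measured.

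Il1rn, the antagonist that competes with IL-1 for IL-1R1, was lower at 0.2 mM than at 4 mM glutamine and varied widely among the 4 mM replicates. Located at chr2:24336853-24351494 on the plus strand, it was at 4.89, 3.36, 3.43, 2.54 and 2.92 TPM with EIPA, against 2.57, 1.52, 1.1, 3.3 and 3.33 TPM with vehicle at 0.2 mM glutamine. With IL-1a it was at 18.03, 5.32, 2.65, 8.31 and 11.82 TPM, against 4.56, 4.89, 6.53, 11.12 and 15.03 TPM with vehicle at 4 mM. The only pair of groups that kept apart was vehicle at 0.2 mM and vehicle at 4 mM. In vehicle Il1rn fell to 2.36 ± 1.02 TPM at 0.2 mM, against 8.43 ± 4.53 TPM at 4 mM (log2 -1.42 ± 0.35, adjusted p = 0.0012; -1.55 relative to the median gene). The differences for EIPA, 0.43 ± 0.35 with an adjusted p of 0.33, and for IL-1a, 0.03 ± 0.35 with an adjusted p of 1, were within the spread, and the IL-1a value became -0.30 without the 3 libraries that stood apart.

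Those 3 libraries were the highest for Il1rn, at 18.03 and 11.82 TPM with IL-1a and 15.03 TPM with vehicle. Ccn1, a matrix-associated protein and YAP target, was lowest there among the 4 mM libraries, at 200.76 and 234.83 TPM with IL-1a and 231.49 TPM with vehicle. The mesothelial marker sum was 973.8 and 1177 TPM in those IL-1a libraries and 1315 TPM in that vehicle library. It was 692.4, 711.1 and 971.6 TPM in the other IL-1a libraries and 803.2 to 1067 TPM in the other vehicle libraries, so IL-1a replicate 1 did not stand apart on this sum. The part of these features in the spread of Il1rn was not tested.

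Il1r1, the signalling receptor of IL-1, was lower in every 0.2 mM library than in every 4 mM library. The gene lies at chr1:40225080-40317257 on the plus strand. Its levels were 6.98, 6.59, 6.61, 7.24 and 6.04 TPM with EIPA, against 7.2, 7.18, 5.97, 5.78 and 5.1 TPM with vehicle at 0.2 mM glutamine. At 4 mM they were 18.95, 13.08, 12.33, 10.15 and 10.65 TPM with IL-1a, against 10.21, 10.63, 10.67, 8.74 and 9.41 TPM with vehicle. Within each glutamine level the groups overlapped. In vehicle Il1r1 fell to 6.25 ± 0.921 TPM at 0.2 mM, against 9.93 ± 0.837 TPM at 4 mM (log2 -0.60 ± 0.12, adjusted p = 0.00016; -0.74 relative to the median gene). EIPA gave 0.09 ± 0.12 with an adjusted p of 0.55 and IL-1a gave 0.33 ± 0.12 with an adjusted p of 0.56, and neither was called. Without replicate 1 of IL-1a, the highest library, the IL-1a value was 0.20 with an adjusted p of 1 (0.29 to 1 over the 30 alternatives).

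Il1rap, the co-receptor shared by IL-1R1 and ST2, was likewise lower in every 0.2 mM library than in every 4 mM library. The gene lies at chr16:26581704-26730117 on the plus strand. It was at 6.38, 5.18, 6, 8.42 and 6.43 TPM with EIPA, against 7.5, 6.52, 7.03, 6.96 and 8.41 TPM with vehicle at 0.2 mM glutamine. The 4 mM levels were 21.18, 20.15, 18.79, 20.45 and 16.86 TPM with IL-1a, against 19.05, 16.16, 17, 17.98 and 16.65 TPM with vehicle. The highest 0.2 mM library was at 8.42 TPM and the lowest 4 mM library at 16.16 TPM, and within each glutamine level the groups overlapped. In vehicle Il1rap fell to 7.28 ± 0.719 TPM at 0.2 mM, against 17.4 ± 1.15 TPM at 4 mM (log2 -1.15 ± 0.09, adjusted p = 5.8e-10; -1.29 relative to the median gene). EIPA gave -0.16 ± 0.09 with an adjusted p of 0.17, which became -0.24 with an adjusted p of 0.021 without EIPA replicate 4, the highest of its group (0.021 to 0.44 over the 30 alternatives). IL-1a gave 0.16 ± 0.09 with an adjusted p of 0.96.

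The receptor transcripts were set against each other as ratios of levels per length, which were not tested. The Il1rap to Il1r1 ratio of TPM averaged 0.967 ± 0.148 with EIPA and 1.20 ± 0.279 with vehicle at 0.2 mM, and 1.56 ± 0.318 with IL-1a and 1.76 ± 0.215 in vehicle at 4 mM (SD, n = 5 each). The Il1rl1 to Il1r1 ratio averaged 0.869 ± 0.187 with EIPA, against 0.129 ± 0.0396 with vehicle at 0.2 mM. It was 0.213 ± 0.0689 with IL-1a and 0.198 ± 0.0616 in vehicle at 4 mM. With EIPA the lowest Il1rl1 to Il1r1 ratio, 0.595, was above the highest in any other group, 0.27.

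Il1r1 and Il1rl1 sit in a cluster of receptor genes on chromosome 1, in the order Il1r2, Il1r1, Il1rl2, Il1rl1, Il18r1 and Il18rap. Il18rap, the accessory chain of the IL-18 receptor, starts 49.9 kb beyond the end of Il1rl1. It rose with EIPA, to 10.5 ± 1.05 TPM against 2.62 ± 0.746 TPM in vehicle (log2 1.69 ± 0.14, adjusted p = 8.8e-09). It fell between the glutamine levels in vehicle, at 2.62 ± 0.746 TPM in 0.2 mM against 4.27 ± 0.714 TPM in 4 mM (-0.56 ± 0.14, adjusted p = 0.0017). Il18r1, the ligand-binding chain of that receptor, lies between them, 136 bases past the end of Il1rl1, and stayed at or below 0.25 TPM in every library. Il1r2, the decoy receptor of IL-1, stayed at or below 0.81 TPM. Il1rl2, the receptor of IL-36, averaged 2.15 ± 0.66 TPM with EIPA and 2.43 ± 0.58 TPM with vehicle at 0.2 mM, and 4.08 ± 1.12 TPM with IL-1a and 3.52 ± 1.12 TPM with vehicle at 4 mM, with no call in these 3 comparisons.

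**Figure D2:**
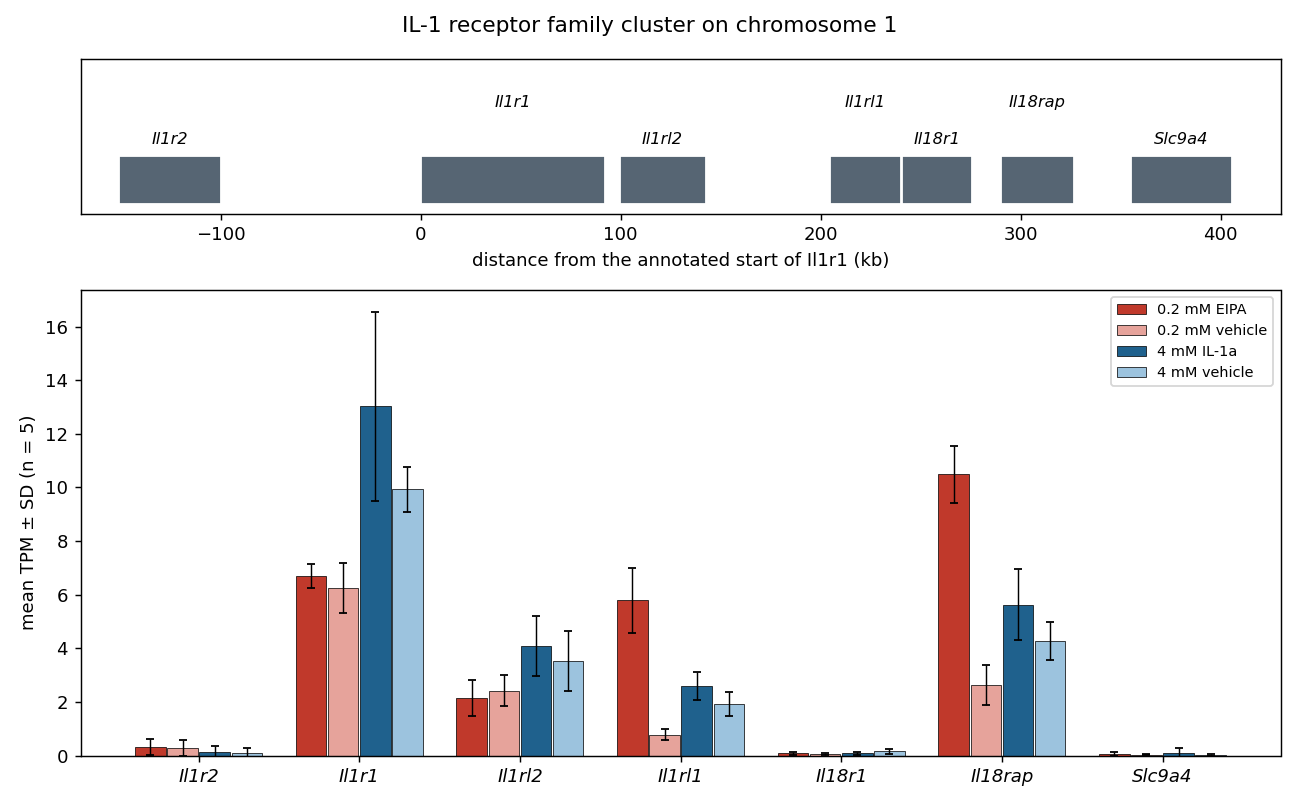
Top, extent of the receptor genes and the neighbouring Slc9a4 in kb from the start of Il1r1; bottom, their mean TPM with SD (n = 5) in the 4 groups. Il1rl1 and Il18rap are highest with EIPA, at 5.79 and 10.5 TPM, while Il1r1 is higher in the 4 mM groups and Il18r1 stays near 0.

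Casp1, the protease that matures IL-1b and IL-18, rose with EIPA and was far lower at 0.2 mM than at 4 mM glutamine. Located at chr9:5298517-5307265 on the plus strand, it was at 4.08, 3.25, 3, 4.35 and 3.71 TPM with EIPA, against 2.06, 2.22, 1.67, 2.23 and 1.36 TPM with vehicle at 0.2 mM glutamine. With IL-1a it was at 21.89, 10.77, 10.97, 10.99 and 11.53 TPM, against 8.77, 8.4, 10.92, 8.65 and 10.2 TPM with vehicle at 4 mM. EIPA and vehicle did not overlap, both were below every 4 mM library, and the 4 mM groups overlapped.

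Casp1 rose 1.93-fold with EIPA, to 3.68 ± 0.561 TPM against 1.91 ± 0.381 TPM in vehicle (log2 0.69 ± 0.15, adjusted p = 0.00084). In vehicle it was 4.92-fold lower at 0.2 mM, with 1.91 ± 0.381 TPM against 9.39 ± 1.11 TPM at 4 mM (-1.84 ± 0.15, adjusted p = 7.6e-10; -1.98 relative to the median gene). IL-1a gave 0.41 ± 0.15 with an adjusted p of 0.57, and 0.22 with an adjusted p of 1 without replicate 1 of IL-1a (0.44 to 1 over the 30 alternatives). Transcripts of the partners of caspase-1 were scarce, with Pycard, the inflammasome adaptor, at most 0.64 TPM and Nlrp3, a sensor, at most 0.42 TPM in any library. Gsdmd, of the inflammasome and processing genes counted below, averaged 36.8 TPM with EIPA and 48.25 TPM with vehicle at 0.2 mM. At 4 mM it averaged 61.4 TPM with IL-1a and 61.1 TPM with vehicle. Of the cytokines matured by caspase-1, Il1b was listed at 0 in all 20 libraries. Il18 fell between the glutamine levels in vehicle, at 0.628 ± 0.387 TPM in 0.2 mM against 4.69 ± 2.46 TPM in 4 mM (-1.75 ± 0.27, adjusted p = 6.7e-06).

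The other ligands of the family were at or near 0. Il1a was listed above 0 in 2 of 20 libraries, at 0.08 and 0.03 TPM. Il1f5, Il1f8 and Il1f9 were listed at 0 throughout, and Il1f10 reached 0.92 TPM at most.

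Myd88, the adaptor at which the IL-1, IL-33 and most Toll-like receptors meet, rose with EIPA. The gene lies at chr9:119335934-119341411 on the minus strand. It was at 40.33, 44.03, 40.81, 37.7 and 35.1 TPM with EIPA, against 30.63, 27.87, 31.98, 30.48 and 27.35 TPM with vehicle at 0.2 mM glutamine. With IL-1a it was at 32.1, 25.48, 25.23, 25.39 and 26.16 TPM, against 25.59, 23.15, 24.28, 27.97 and 28.2 TPM with vehicle at 4 mM. The EIPA libraries were above all 15 others, and the other 3 groups overlapped one another. Myd88 rose 1.34-fold with EIPA, to 39.6 ± 3.37 TPM against 29.7 ± 1.97 TPM in vehicle (log2 0.40 ± 0.08, adjusted p = 0.00018). IL-1a gave 0.05 ± 0.08 with an adjusted p of 1. Between the glutamine levels it was called higher at 0.2 mM, at 29.7 ± 1.97 TPM against 25.8 ± 2.23 TPM in 4 mM (0.19 ± 0.08, adjusted p = 0.026), but only 0.06 higher relative to the median gene. After median-of-ratios scaling that value was 0.05 with an adjusted p of 0.55 (0.0063 to 0.55 over the 30 alternatives). The call was also lost, at adjusted p-values of 0.051 to 0.081, without vehicle replicate 1, 3 or 4 at 0.2 mM or vehicle replicate 2 or 3 at 4 mM.

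Irak1 and Irak4 encode the kinases recruited by MyD88, with IRAK4 acting on IRAK1. Irak1, at chrX:74013914-74023918 on the minus strand, was the most abundant of the 9 genes. It was at 78.82, 82.23, 78.62, 78.5 and 76.61 TPM with EIPA, against 68.93, 68.39, 75.26, 76.26 and 72.85 TPM with vehicle at 0.2 mM glutamine. With IL-1a it was at 72.99, 69.3, 76.17, 61.51 and 60.92 TPM, against 69.37, 65.33, 71.77, 59.4 and 60.23 TPM with vehicle at 4 mM. The EIPA libraries were above all others, yet the difference from vehicle was small, 0.13 ± 0.06 with an adjusted p of 0.11. A fit of those 2 groups alone gave an adjusted p of 0.039 (0.039 to 0.35 over the 30 alternatives). Between the glutamine levels Irak1 was called higher at 0.2 mM, with 72.3 ± 3.58 TPM against 65.2 ± 5.45 TPM in 4 mM (0.15 ± 0.06, adjusted p = 0.039), and this was 0.01 relative to the median gene. After median-of-ratios scaling the value was 0.004 with an adjusted p of 0.96 (0.016 to 0.96 over the 30 alternatives). Without vehicle replicate 3, 4 or 5 at 0.2 mM, or vehicle replicate 2, 4 or 5 at 4 mM, the adjusted p was 0.058 to 0.12. Without the 3 libraries that stood apart the value was 0.12 with an adjusted p of 0.082. IL-1a gave 0.06 ± 0.06 for Irak1, with an adjusted p of 1.

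Irak4, at chr15:94543643-94581815 on the plus strand, had the order of group means of Il1r1. It was at 6.38, 5.75, 6.12, 8.65 and 6.85 TPM with EIPA, against 5.56, 6.29, 4.17, 6.72 and 3.15 TPM with vehicle at 0.2 mM glutamine. With IL-1a it was at 12.52, 9.28, 9.4, 8.69 and 9.66 TPM, against 9.04, 8.64, 10.92, 7.67 and 10.04 TPM with vehicle at 4 mM. Vehicle at 0.2 mM was below both 4 mM groups, and EIPA overlapped both vehicle groups. In vehicle Irak4 fell to 5.18 ± 1.49 TPM at 0.2 mM, against 9.26 ± 1.26 TPM at 4 mM (-0.76 ± 0.15, adjusted p = 8.5e-05; -0.90 relative to the median gene). EIPA gave 0.35 ± 0.15 with an adjusted p of 0.051, which lay between 0.019 and 0.18 over the 30 alternatives and was called in 7 of them, among these the fits without EIPA replicate 2, vehicle replicate 2 or 4 at 0.2 mM, or replicate 1 of IL-1a, and the fit without the 3 libraries that stood apart (0.35, adjusted p = 0.049). IL-1a gave 0.09 ± 0.15 with an adjusted p of 1. The gene shares 395 exon bases with Twf1 on the opposite strand, and whether the authors' counting used strand is not given in the sources used here. Twf1 averaged 97.1 ± 3.17 TPM with EIPA and 81.1 ± 5.81 TPM with vehicle at 0.2 mM, against 100.8 ± 3.2 TPM with vehicle at 4 mM, so it moved in the same directions as Irak4, and its part in the Irak4 values was not tested. Myd88 shares 290 exon bases with Acaa1a in the same way, which was not called for EIPA (0.08 ± 0.12, adjusted p = 0.62).

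Of the other kinases of this family, Irak2 and Irak3 were singled out after their values were seen. Irak2 rose with EIPA, at 59.6 ± 4.53 TPM against 48.5 ± 5.98 TPM in vehicle (0.30 ± 0.08, adjusted p = 0.0049). In vehicle it fell to 48.5 ± 5.98 TPM at 0.2 mM, against 58.4 ± 3.55 TPM at 4 mM (-0.27 ± 0.08, adjusted p = 0.0054). Irak3, a kinase-dead relative that restrains this signalling, rose to 3.21 ± 0.37 TPM at 0.2 mM, against 1.76 ± 0.26 TPM at 4 mM (0.61 ± 0.13, adjusted p = 0.00018).

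Counted together, 3 of the 9 genes rose with EIPA (Il1rl1, Casp1 and Myd88) and 0 fell, while 27.4% of all genes tested were called higher and 21.1% lower in that comparison. EIPA and vehicle did not overlap for 4 of the 9, against 34.6% of all genes. Both counts are close to what those shares give for 9 genes. Their median log2 fold change was 0.35, beside 0.02 over all genes tested.

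With IL-1a, 0 of the 9 were called by limma, and IL-1a and vehicle did not overlap for 1, Il33. Over all genes tested 0.283% were called, 35 genes, and 1.38% did not overlap. The median over the 9 was 0.16, beside 0.01 over all genes. In the same libraries, 10 of 24 tested IL-1 response genes rose and 0 fell, on a list fixed with earlier results of these data known. Cxcl5, a neutrophil chemokine, was at 54.8 TPM with IL-1a against 4.12 TPM with vehicle (3.31 ± 0.22, adjusted p = 9.4e-09), and Saa3, an acute-phase protein, at 20.1 ± 22.9 against 0.66 ± 0.903 TPM (3.34 ± 0.40, adjusted p = 0.0001). Saa3 was at 60.92 TPM in replicate 1 of IL-1a and 7.67 to 13.47 TPM in the other 4, against 2.17 TPM in vehicle replicate 5 and 0 to 0.78 TPM in the other 4. Among inflammasome genes, Casp4, which senses cytosolic lipopolysaccharide, was the 1 of 9 tested that rose, at 15.0 TPM with IL-1a against 6.98 TPM with vehicle (0.99 ± 0.15, adjusted p = 0.0017).

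Between the glutamine levels in vehicle all 9 were called, 7 lower at 0.2 mM (Il33, Il1rn, Il1r1, Il1rap, Il1rl1, Casp1 and Irak4) and 2 higher (Myd88 and Irak1, both lost after median-of-ratios scaling). Of all genes tested, 27.9% were called lower and 45.4% higher, 5606 higher and 3449 lower, and after median-of-ratios scaling the split was 4385 higher and 4438 lower. The groups did not overlap for 7 of the 9, against 59.9% of all genes. The median over the 9 was -0.76, beside 0.14 over all genes. Vehicle at 0.2 mM is the control of the EIPA comparison as well, so both comparisons share those 5 libraries.

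**Figure D3:**
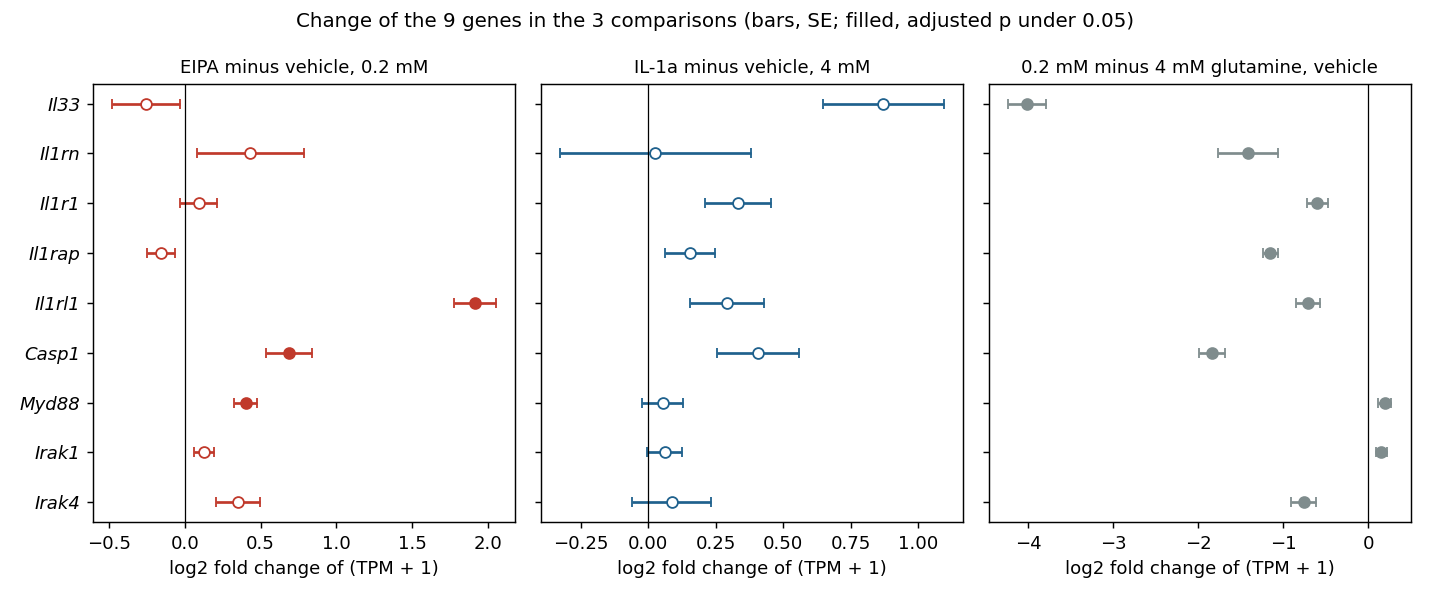
Log2 fold change of TPM + 1 with SE for the 9 genes in the 3 comparisons, filled where the adjusted p was under 0.05. The EIPA panel has 3 filled points, all to the right, the IL-1a panel has 0, and in the glutamine panel 7 filled points lie to the left, down to -4.02 for Il33, and 2 to the right.

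The EIPA response, measured at 0.2 mM glutamine, minus the IL-1a response, measured at 4 mM, was called for 3 of the 9. Of these, 2 were higher and 1 lower, where 16.3% of all genes were higher and 12.6% lower. Agent and glutamine level cannot be told apart in this difference. Il1rl1 led with the 1.62 given above. Myd88 responded more to EIPA than to IL-1a, by 0.35 ± 0.11 (adjusted p = 0.018). Il33 responded less, by -1.13 ± 0.32 (adjusted p = 0.011), although neither response of Il33 was called by itself. Its levels were 0.36 to 1.41 TPM in the EIPA comparison, near the floor, and 23.25 to 119.75 TPM in the IL-1a comparison. For Casp1 the difference of 0.28 ± 0.21 had an adjusted p of 0.35, and without replicate 1 of IL-1a it was 0.47 with an adjusted p of 0.021 (0.021 to 0.5 over the 29 alternatives). Without the 3 libraries that stood apart it was 0.46 with an adjusted p of 0.042. For Il1rap the difference of -0.31 ± 0.13 had an adjusted p of 0.081, and it was called without EIPA replicate 4 (-0.40, adjusted p = 0.012) and without replicate 5 of IL-1a (-0.36, adjusted p = 0.048), with a range of 0.012 to 0.16 over the 29 alternatives.

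Genes of the pathway were counted from lists fixed with earlier results of these data known, and these lists also hold members of the 9. Of 19 tested genes of IL-1 receptor signalling, 8 rose and 1 fell with EIPA, 0 were called with IL-1a, and 14 were higher and 4 lower at 0.2 than at 4 mM glutamine. Without Myd88, Irak1 and Irak4, 16 were tested. Of these, 7 rose and 1 fell with EIPA, and 12 were higher and 3 lower at 0.2 mM. Over all genes tested, 27.4% were higher and 21.1% lower with EIPA, 0.283% were called with IL-1a, and 45.4% were higher and 27.9% lower at 0.2 mM. The list's median was 0.13 for EIPA, 0.03 for IL-1a and 0.34 for glutamine, beside 0.02, 0.01 and 0.14 over all genes. Ikbkb, the kinase that marks the NF-kB inhibitor for destruction, was at 50.6 TPM with EIPA against 32.8 TPM with vehicle (0.61 ± 0.05, adjusted p = 1.4e-08), and its regulatory partner Ikbkg at 49.0 against 33.2 TPM (0.55 ± 0.14, adjusted p = 0.0025). Tollip, which restrains IL-1 receptor signalling, was at 63.4 TPM in 0.2 mM against 33.4 TPM in 4 mM glutamine (0.90 ± 0.08, adjusted p = 2e-09), and the NF-kB kinase subunit Chuk at 66.4 against 41.2 TPM (0.68 ± 0.05, adjusted p = 2.4e-10).

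Of 9 tested inflammasome and processing genes, 4 rose and 3 fell with EIPA, and 1 was higher and 5 lower at 0.2 than at 4 mM glutamine. Without Casp1, 8 were tested, of which 3 rose and 3 fell with EIPA, and 1 was higher and 4 lower at 0.2 mM. The shares over all genes were 27.4% higher and 21.1% lower for EIPA, and 45.4% and 27.9% for glutamine, and the list medians were 0.22 for EIPA and -0.26 for glutamine, beside 0.02 and 0.14 over all genes. P2rx7, an ATP-gated channel upstream of the inflammasome, was at 21.4 TPM with EIPA against 13.5 TPM with vehicle (0.66 ± 0.11, adjusted p = 6e-05), and the channel Panx1 at 24.2 against 15.2 TPM (0.61 ± 0.13, adjusted p = 0.0006). Capn1, a calpain protease, was at 25.4 TPM in 0.2 mM against 52.8 TPM in 4 mM glutamine (-1.03 ± 0.07, adjusted p = 3.4e-11). Casp4 went the other way, at 15.0 against 6.98 TPM (1.01 ± 0.15, adjusted p = 5.5e-06).

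Toll-like receptors, most of which share MyD88 with the IL-1 receptors, were counted together with their adaptors. Of 9 tested genes, 5 were higher and 1 lower with EIPA, and 0 were called with IL-1a. Between the glutamine levels, 2 were higher and 4 lower at 0.2 than at 4 mM. All genes tested gave 27.4% higher and 21.1% lower with EIPA, 0.283% called with IL-1a, and 45.4% higher and 27.9% lower at 0.2 mM. The list medians were 0.27 for EIPA, 0.05 for IL-1a and -0.14 for glutamine, beside 0.02, 0.01 and 0.14 over all genes. Cd14, the lipopolysaccharide co-receptor, was at 15.7 TPM with EIPA against 7.14 TPM with vehicle (1.04 ± 0.15, adjusted p = 7.7e-06), and Tlr4 at 18.9 against 14.1 TPM (0.40 ± 0.09, adjusted p = 0.0012). In vehicle, Cd14 was at 7.14 TPM in 0.2 mM against 13.7 TPM in 4 mM (-0.85 ± 0.15, adjusted p = 2.6e-05), and the adaptor Ticam1 at 7.12 against 11.3 TPM (-0.61 ± 0.10, adjusted p = 1e-05).

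Of 24 tested IL-1 response genes, 13 rose and 2 fell with EIPA, with a median of 0.48, and 8 were higher and 13 lower at 0.2 than at 4 mM glutamine, with a median of -0.47. Over all genes the shares were 27.4% higher and 21.1% lower with a median of 0.02 for EIPA, and 45.4% higher and 27.9% lower with a median of 0.14 for glutamine. Ccl2, a monocyte chemokine, was at 31.8 TPM with EIPA against 3.004 TPM with vehicle (2.97 ± 0.21, adjusted p = 4.5e-10), and at 3.004 TPM in 0.2 mM against 48.1 TPM in 4 mM (-3.63 ± 0.21, adjusted p = 3.4e-12). Mmp3, a matrix protease, was at 10.8 TPM with EIPA against 1.03 TPM with vehicle (2.51 ± 0.25, adjusted p = 6.1e-08), and at 1.03 TPM in 0.2 mM against 17.8 TPM in 4 mM (-3.21 ± 0.25, adjusted p = 2.6e-10).

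**Figure D4:**
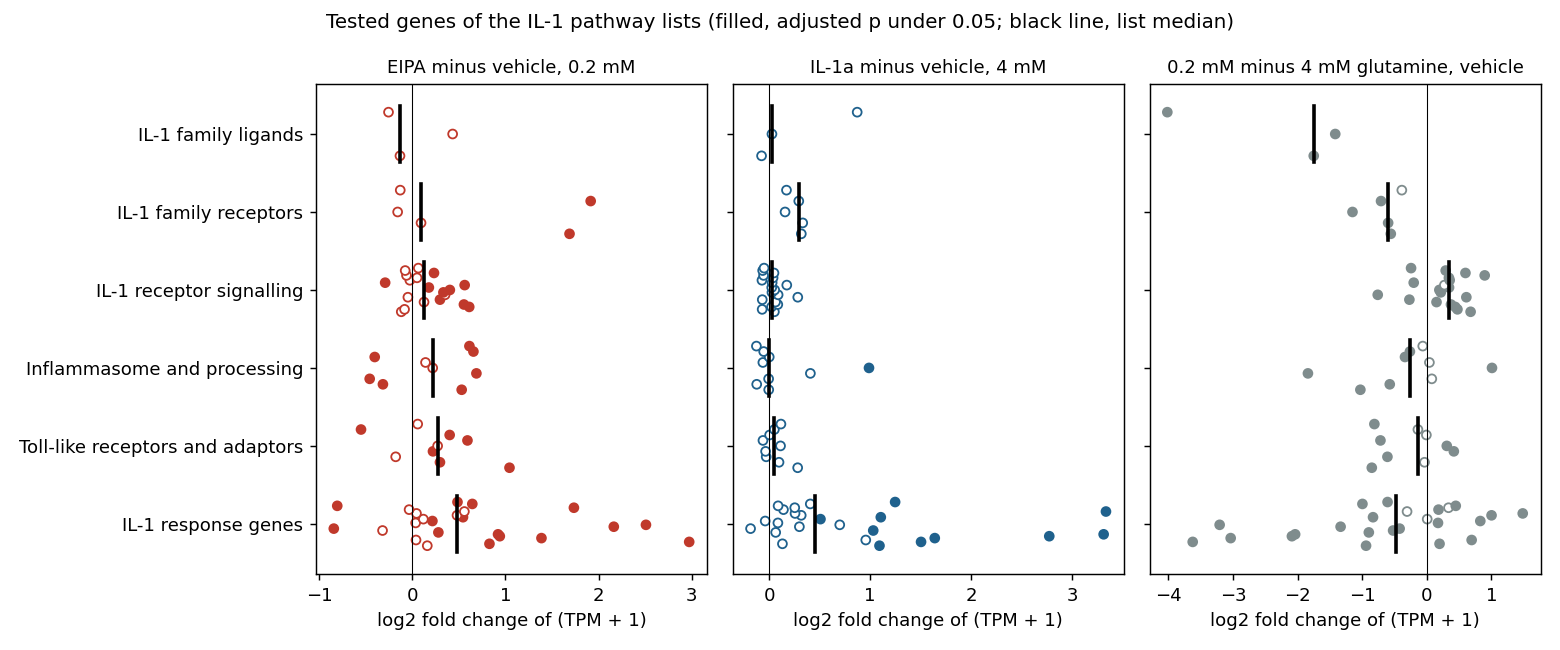
Log2 fold change of TPM + 1 of each tested gene of 6 pathway lists in the 3 comparisons, filled where the adjusted p was under 0.05, with the list median as a black line. With IL-1a the filled points are 10 IL-1 response genes and Casp4, while with EIPA 8 of the 19 signalling genes are filled to the right and 1 to the left.

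For the 5 genes that bind or block the cytokines or are one, the most similar profiles over the 20 libraries were sought among 10041 genes, by the root mean square difference of standardised log2(TPM + 1). Il33 was closest to Medag (0.133 SD units), Adam12 (0.143) and Hand2 (0.144). Medag, for example, averaged 0.572 TPM with EIPA and 0.674 TPM with vehicle at 0.2 mM, and 30.6 TPM with IL-1a and 23.7 TPM with vehicle at 4 mM. Il1rap was closest to Dse (0.14), Hs3st1 (0.15) and Trib1 (0.157), and Il1r1 to Entpd5 (0.299), Pros1 (0.307) and Plac8 (0.326).

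Il1rl1 was closest to Pcyt2 (0.276), Insig1 (0.287) and Mvd (0.297). Pcyt2 encodes an enzyme of phosphatidylethanolamine synthesis, Insig1 a regulator of sterol synthesis and Mvd a mevalonate pathway enzyme. Insig1 averaged 293 TPM with EIPA and 17.7 TPM with vehicle at 0.2 mM, and 71.5 TPM with IL-1a and 68.2 TPM with vehicle at 4 mM. Its order of levels over the groups is that of Il1rl1, and a like order is what this search picks for. Il1rn had no profile as near, with Usp54 at 0.372, Sntb2 at 0.415 and Amer1 at 0.424.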

How the data were processed

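RNA was extracted with the PureLink kit, polyadenylated RNA libraries were made with a Watchmaker kit and read on an AVITI as pairs of 75 bases, per the labels' protocols. The deposited values are TPM per gene; RSEM and mm10 are named without versions, per the submitters' processing notes, while the sources used here give no aligner, annotation release or use of strand. The depth per library is unknown, so no counting interval is given. Of the 32285 gene IDs, 32158 were in GENCODE M21, from which positions and exon overlaps come, counted from 1. Promoter sequences are RefSeq's (GRCm38.p6) and matched all 9 genes.

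The limma package (3.58.1, R 4.3.3) was run on log2(TPM + 1), in a single model of the 4 groups over 20 libraries with an intensity trend, for genes that reached 1 TPM in 5 or more libraries. Benjamini-Hochberg adjustment ran over all 12350 tested genes, and genes under 0.05 were called. The procedure was tested on simulated data. Values after ± are SD for TPM and SE for log2 fold changes. Fold changes on this scale understate those of low genes.

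The members, the gene lists and the tests were chosen with earlier results of these data known. From each list, the 2 called genes that are not among the 9, with the largest change and at least 5 TPM in the higher group, are named per comparison. Other members of the family may be named with their level, and marker genes serve as checks of cell type. Il18, Il1rl2, Irak2, Irak3, Twf1, Acaa1a, Rora, Gata3 and, for glutamine, Il18rap are given with test results outside this rule, after their values were seen. Alternatives were a pseudocount of 0.1, no filter, a mean of at least 5 TPM, median-of-ratios scaling, quantile normalisation, leaving out mitochondrial genes, fitting only the groups compared, no intensity trend, a replicate block, and leaving out each library or the 3 that stand apart.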

Additional observations from a re-analysis of the deposited data

Results flagged for a closer look

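For 4 of the 9 genes, replicate 1 of IL-1a at 4 mM glutamine lay far above the other 4 libraries of its group. The gap to the nearest library, as a share of the group's range, was above Dixon's 95% critical value of 0.71 for 5 samples. Il33 was at 119.75 TPM there against 48.06 TPM in the next library. Casp1 was at 21.89 TPM against 11.53 TPM, Myd88 at 32.1 TPM against 26.16 TPM and Irak4 at 12.52 TPM against 9.66 TPM. Of the 36 sets of 5 libraries looked at, these 4 stood out. Chance alone is expected to pick about 1 in 20 where the sets are independent. All 4 lay in replicate 1 of IL-1a, so they were not independent and cannot be set against that rate. The same library held the highest Cxcl5 and Saa3 of its group, at 105.25 and 60.92 TPM, and the highest Casp4, at 21.17 TPM. Its part in the IL-1a values of the 9 genes is given by the values without it, on the log2 scale. For the 4 genes above these were 0.58 in place of 0.87 for Il33, 0.22 in place of 0.41 for Casp1, -0.01 in place of 0.05 for Myd88 and 0.01 in place of 0.09 for Irak4. Il1r1 gave 0.20 in place of 0.33, Il1rap 0.13 in place of 0.16, Il1rn -0.25 in place of 0.03, Il1rl1 0.39 in place of 0.29 and Irak1 0.04 in place of 0.06.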

How the results depend on the processing

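Of the results for the 9 genes under the alternatives, 1028 kept their direction and side of the threshold, 18 lost a call, 14 gained one and 7 changed sign. The calls of Il1rl1, Casp1 and Myd88 with EIPA, and of the 7 genes lower at 0.2 mM glutamine, held under every alternative that gave a value; a mean of at least 5 TPM leaves Il1rl1 untested. The lost calls were those of Myd88 and Irak1 between the glutamine levels, called in 23 and 19 of 30 alternatives. The changes of sign were in IL-1a values near 0, for Il1rn with a range of -0.253 to 0.343 and for Myd88 of -0.011 to 0.084 with 1 library left out, and for Il1rn -0.304 without the 3 libraries that stand apart; the cause was not tested. With only the groups compared in the fit, 19 genes in place of 35 were called for IL-1a. For EIPA that fit called 5932 in place of 5986, and for glutamine 9152 in place of 9055. Such a fit has fewer samples behind the spread, and the cause of the lower IL-1a count was not tested. With 1 library left out, the calls over all genes lay between 5424 and 6152 for EIPA, 27 and 47 for IL-1a, 8764 and 9139 for glutamine, and 3137 and 3759 for the difference of responses. Replicate numbers are shared between groups, and same-numbered libraries deviated together in part. Correlations of their deviations were 0.062 to 0.322 for EIPA, -0.281 to 0.601 for IL-1a and 0.049 to 0.167 for glutamine. Of the 5 pairs in these comparisons, 4, 2 and 4 matched their own number best. On the third principal component, replicates 1 and 5 were at 4.6 and -9.03 with EIPA and 1.3 and -4.7 with vehicle at 0.2 mM. They were at 13.05 and -17.23 with vehicle at 4 mM, and at -18.78 and -17.26 with IL-1a. What the replicate numbers stand for is not stated in the labels, and the main fit has no term for them. A replicate block gave 6305, 39, 9230 and 4000 calls for EIPA, IL-1a, glutamine and the difference, and changed no call of the 9 genes. Depth is unknown, which limits the values of genes under a few TPM, such as Il33 at 0.2 mM glutamine.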

Other observations

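Il18, a relative of Il33 in the IL-1 family, was high in the same 4 mM libraries as Il1rn. It was at 7.37 and 6.45 TPM in IL-1a replicates 1 and 5, against 2.04, 2.25 and 4.43 TPM in the other IL-1a libraries. In vehicle it was at 8.84 TPM in replicate 5, against 3.99, 2.89, 2.91 and 4.84 TPM in the others.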
